A study of Mus musculus with 17 samples.

Results

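The genes described here are 9 in number. They are the orphan nuclear receptors Nr4a1, Nr4a2 and Nr4a3, the zinc finger factors Egr1, Egr2 and Egr3, and the immediate early response genes Ier2 and Ier3. The last is the EGR corepressor Nab2. All 9 of 9 were found among the 17097 genes measured. For each gene, 1 probe set stood for the gene, namely the one with exactly 1 gene symbol and the highest mean over the 17 arrays. The genes were chosen by their differences between gland and spleen in earlier results of these arrays, and the probe sets were selected on their mean over all arrays. The differences between gland and spleen below are therefore a description of chosen genes, and how many of them pass the test is not independent evidence of a direction.

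The Nr4a, Egr and Ier genes belong to the immediate early class. Their transcription starts within minutes of receptor signalling and needs no new protein synthesis. In lymphocytes they are known as early targets of the B cell and T cell antigen receptors, reached through calcium, calcineurin and MEF2 for the Nr4a genes and through ERK, ELK and SRF for the Egr genes. NR4A and EGR proteins in turn regulate genes of activation, tolerance and exhaustion. The same genes are also switched on by stress, growth factors and tissue dissociation in most cell types.

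The study profiled cells sorted from male NOD mice, an inbred strain that develops autoimmune inflammation of the lacrimal gland and serves as a model of Sjögren's syndrome. Lacrimal gland cells came from mice of 16 weeks, and no group had a treatment or an engineered allele. The spleen samples are given as 16 weeks old in the sample labels and as 4 weeks old in the series' design text, so age and tissue cannot be told apart if the latter holds. The groups were 4 arrays of gland B cells (CD45+, B220+, CD3-), 3 of splenic B cells sorted the same way, 4 of gland CD4 T cells (CD45+, CD3+, CD4+), 3 of splenic CD4 T cells, and 3 of gland epithelial cells (CD45-, CD326+). Glands were dissociated mechanically and with enzymes. No enzymatic step is stated for spleen, so tissue and dissociation cannot be told apart either. RNA was amplified and hybridised to Affymetrix mouse arrays, and the deposited values are log2 intensities after RMA. Levels below are on this log2 scale, and a difference of 1 is a 2-fold change. The labels do not say whether replicates are different mice, and the p-values cover no more than the array-to-array spread, which could be technical.

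The lymphocyte libraries carried the markers of their labels. The mean of the B cell markers was between 9.91 and 10.00 in gland B cells and between 4.38 and 4.83 in gland CD4 T cells, and the mean of the T cell markers was between 10.04 and 10.12 in gland CD4 T cells and between 4.28 and 4.55 in gland B cells. A few libraries stood apart. Epithelial replicate 1 had a Ptprc (CD45) level of 9.62 against 2.42 and 2.36 in the others, although its gate was CD45-, and a Cd3e level of 7.07 against 4.24 and 4.20. Splenic B cell replicate 3 had a level of the neutrophil gene S100a8 of 9.63 against 3.59 and 3.32. All 3 epithelial arrays also carried markers of endothelial cells: the mean of 7 such genes was between 8.09 and 8.62, against 8.84 to 9.41 for the epithelial identity genes and at most 4.49 on any lymphocyte array. The vessel genes Emcn, Tek and Esam were each above 9 on all 3. A mean of 7 fibroblast genes was between 5.88 and 6.39, against at most 3.55 on lymphocyte arrays. Values called epithelial below are those of this sorted group, and how much of them comes from endothelial cells or fibroblasts was not tested. Epithelial genes were also present in both gland lymphocyte groups: the mean of 10 epithelial identity genes was between 5.32 and 5.61 in gland B cells and between 5.50 and 5.90 in gland CD4 T cells, against 3.96 to 4.04 and 3.93 to 4.01 in the splenic groups and 8.84 to 9.41 in epithelial cells. The mean of 7 lacrimal secretory genes was between 6.79 and 7.63 in gland B cells and between 4.46 and 5.85 in splenic B cells, and between 7.33 and 7.53 in gland CD4 T cells and between 3.89 and 4.52 in splenic CD4 T cells. The mean of 5 genes listed for plasma cells was between 8.07 and 8.36 in gland CD4 T cells and between 6.19 and 6.67 in splenic CD4 T cells. Of the 5, 4 were called higher, where 5.35% of all genes were. Tnfrsf17 was not, at 4.13 to 4.42 in gland and 3.88 to 4.20 in spleen. Irf4, among the 4, is also listed below as induced by antigen receptors. In B cells the mean of the 5 genes was between 7.64 and 7.91 in gland and between 8.22 and 8.54 in spleen. Their part in the results was not tested.

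Sequence before the start of 6 of the 9 genes was at hand in RefSeq (GRCm38.p6), as 10 windows of 250 bases. Each window was searched on both strands for short motifs of the factors that are known to act on these genes. Searched were the CREB motif core TGACG, which also lies inside the full CRE TGACGTCA, the CArG box of SRF, an SRF form of it, the EGR motifs GCGGGGGCG and GCGTGGGCG, the NR4A motif AAAGGTCA, the AP-1 motif TGAGTCA, and 1 motif each of NF-kB and MEF2. Of the windows, 5 belong to Egr2, and 3 of these overlap almost wholly, so matches are counted by gene and by distinct position. The core TGACG was found for 4 of the 6 genes, namely Nr4a1, Nr4a2, Nr4a3 and Egr2, at 14 positions; 19.8% of 27025 genes and 17.8% of 32851 windows held it. CArG boxes were found for 1 gene, Egr2, at 2 positions, and for 1.62% of all genes (1.47% of windows). The EGR motif was found once, for Nr4a1, and for 2.93% of all genes (2.57% of windows). The other motifs were found for none of the 6 genes and for between 0.074% (the SRF form) and 5.16% (TGAGTCA) of all genes. A match is a description of these letters and no evidence of binding. The stretches below hold the matches, shown so that the genes can be read against each other; capitals mark the matched letters in either orientation (CGTCA and CGCCCCCGC are TGACG and GCGGGGGCG read on the other strand), and Nr4a2 is on the minus strand, the others on the plus strand.
Nr4a1, chr15:101266696-101266845: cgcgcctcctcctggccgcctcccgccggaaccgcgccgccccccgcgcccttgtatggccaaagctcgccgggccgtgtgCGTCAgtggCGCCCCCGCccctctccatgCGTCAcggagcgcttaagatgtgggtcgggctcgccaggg
Nr4a2, chr2:57124004-57124153: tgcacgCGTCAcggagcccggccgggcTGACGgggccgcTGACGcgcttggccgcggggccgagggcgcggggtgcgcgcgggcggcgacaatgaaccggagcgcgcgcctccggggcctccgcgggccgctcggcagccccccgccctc
Nr4a3, chr4:48045087-48045116: catgtCGTCAcatTGACGtctcgcattcca
Egr2, chr10:67537792-67537821: tcagtCCATATATGGgcagcgaCGTCAcgg
Nr4a1 combined TGACG with the EGR motif, Nr4a2 and Nr4a3 held TGACG in both orientations, and Egr2 held a CArG box next to TGACG. Nab2 and Ier3 held none of the searched motifs in their windows.

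In B cells, 7 of the 9 genes were higher in gland than in spleen, by limma, taking an adjusted p under 0.05 (adjusted over the whole table) together with at least a 2-fold change. None was lower, and Egr3 and Nab2 did not pass. Of all 17097 genes, 2.58% were called higher and 1.6% lower. The median log2 difference of the 9 genes was 2.12, and that of all genes was 0.00. In CD4 T cells, 4 of the 9 were higher in gland than in spleen (Nr4a1, Nr4a2, Ier2 and Ier3) and none was lower. There, 5.35% of all genes were called higher and 1.62% lower. Of the called genes 76.7% were higher, and 64.0% after each array was centred on its median, which removed 0.155 from every log2 difference in this comparison; all 4 members stayed called. The median log2 difference of the 9 was 1.37, against -0.03 over all genes. In bulk samples such as these, fewer cells of a type and less RNA per cell cannot be told apart.

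**Figure D1:**
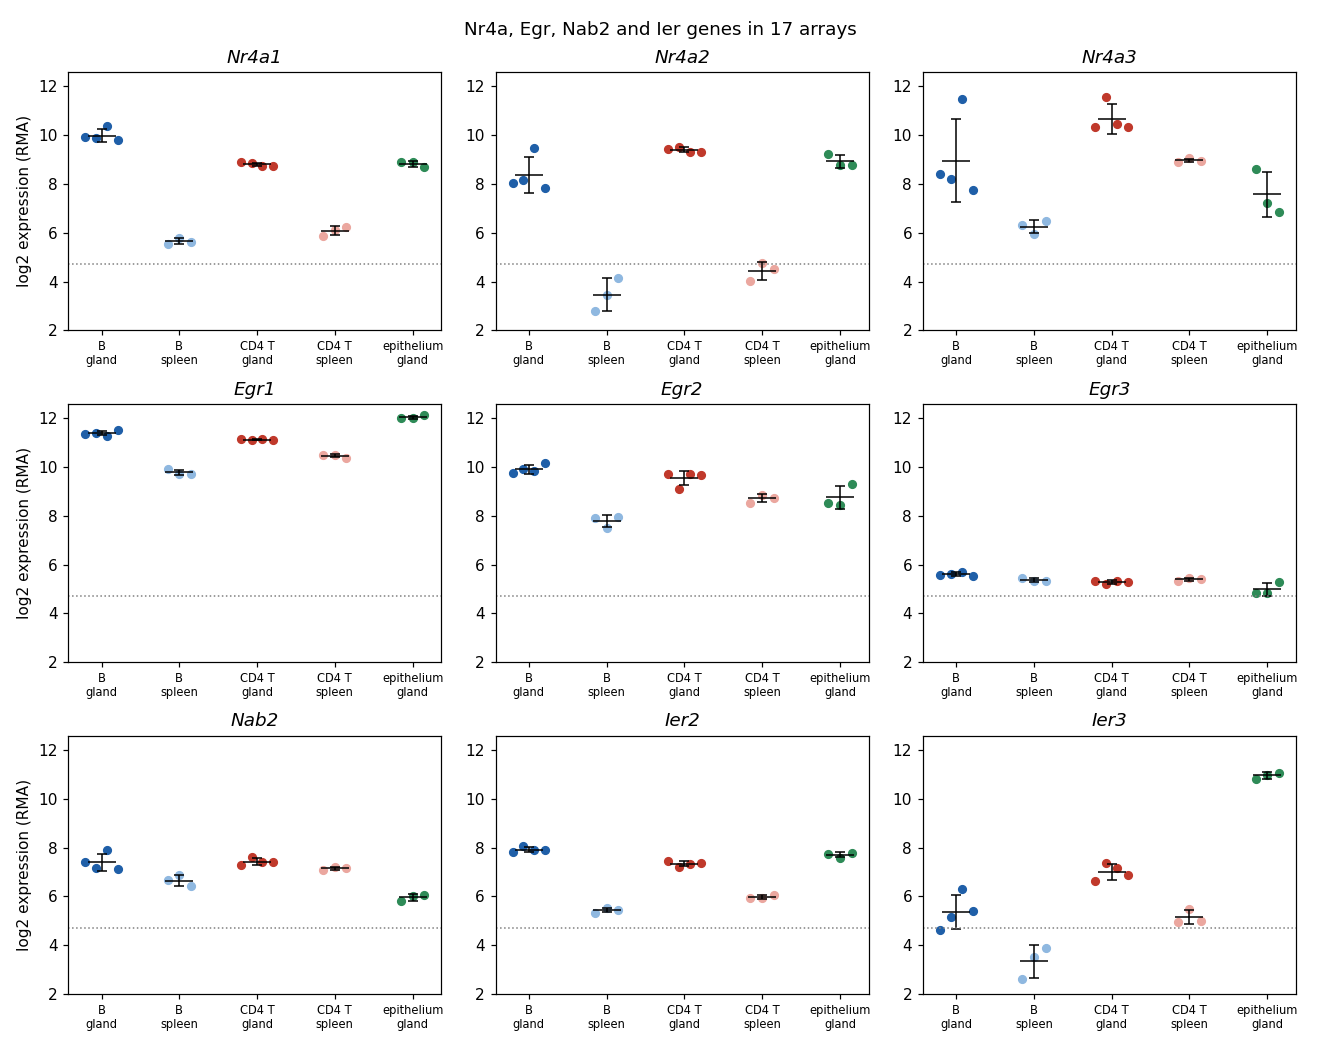
Deposited log2 RMA value (vertical axis) of each of the 9 genes on every array, with 1 panel per gene; points are arrays, coloured by group, bars are group means with their SD, and the dotted line is the median of all values, 4.71. Nr4a1 lies between 9.81 and 10.37 in gland B cells and between 5.54 and 5.80 in splenic B cells, while Egr3 stays between 4.82 and 5.72 on all arrays.

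Nr4a1 (NUR77) is the NR4A receptor most often used as a reporter of antigen receptor signalling. Its level was 9.92, 9.87, 10.37 and 9.81 on the gland B cell arrays and 5.54, 5.80 and 5.64 on the splenic ones. The groups lay far apart. The log2 difference was 4.33 (SE 0.13, adjusted p = 3.34e-12). On CD4 T cell arrays the level was 8.89, 8.85, 8.73 and 8.74 in gland and 5.88, 6.14 and 6.23 in spleen. These groups did not overlap either, and the difference was 2.72 (SE 0.13, adjusted p = 3.76e-10). Epithelial cells had 8.89, 8.91 and 8.69, overlapping gland CD4 T cells and below every gland B cell array.

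Nr4a2 (NURR1), a close relative that binds the same response elements, was 8.03, 8.16, 9.46 and 7.83 in gland B cells and 2.79, 3.47 and 4.13 in splenic B cells. Its log2 difference of 4.91 (SE 0.34, adjusted p = 1.16e-07) was the largest of the 9 genes in B cells on the probe sets used, though not on the other Nr4a2 probe sets given below. In CD4 T cells the gland values were 9.45, 9.53, 9.33 and 9.31 and the splenic ones 4.04, 4.75 and 4.50, a difference of 4.97 (SE 0.34, adjusted p = 3.02e-08). Epithelial cells had 9.24, 8.79 and 8.77, overlapping gland B cells. Of the splenic values, 5 of 6 lay below 4.71, the median of all values in the table, and the files hold no detection calls, so these folds are ratios of deposited values and the splenic level is not shown to be above background.

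Nr4a3 (NOR1), the remaining receptor of the family, was the most variable of the 3. Gland B cells had 8.40, 8.20, 11.49 and 7.76 and splenic B cells 6.30, 5.95 and 6.48. Replicate 3 was more than 3 units above every other gland B cell array, and the groups did not overlap. The log2 difference was 2.72 (SE 0.67, adjusted p = 0.0105), and without replicate 3 it was 1.88 (SE 0.39, adjusted p = 0.00442). Gland CD4 T cells had 10.33, 11.58, 10.44 and 10.34 against 8.92, 9.06 and 8.95 in spleen. The arrays did not overlap, but the difference of 1.70 (SE 0.67, adjusted p = 0.0863) did not pass with the spread shared by all groups. It passed in a fit of those 7 arrays alone (SE 0.29, adjusted p = 0.00288), and in that kind of fit the B cell difference no longer passed (adjusted p = 0.0519). Epithelial cells had 8.64, 7.23 and 6.86, the highest being replicate 1, the library with Ptprc.

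Egr1 is a zinc finger factor induced by ERK signalling in nearly every cell type. Gland B cells had 11.36, 11.39, 11.29 and 11.52 and splenic B cells 9.91, 9.73 and 9.72, a log2 difference of 1.61 (SE 0.07, adjusted p = 5.89e-10). The CD4 T cells of the gland had 11.15, 11.11, 11.14 and 11.09, and splenic CD4 T cells 10.51, 10.50 and 10.39. That difference of 0.65 (SE 0.07, adjusted p = 6.06e-06) was clear of the spread but under 2-fold. The highest level was in epithelial cells, at 12.01, 12.03 and 12.12. No group overlapped its neighbour in this order. The highest value in the table was 12.9, so Egr1 lay near the top of the scale, where array signals can compress; whether that reduced its differences was not tested.

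Egr2 (KROX20) is tied in T cells to anergy and to restraint of autoimmunity. Its level in gland B cells was 9.75, 9.91, 9.83 and 10.18 and in splenic B cells 7.93, 7.51 and 7.94, a log2 difference of 2.12 (SE 0.20, adjusted p = 2.75e-06). For CD4 T cells it was 9.71, 9.11, 9.73 and 9.67 in gland and 8.55, 8.87 and 8.75 in spleen, without overlap. This difference of 0.83 (SE 0.20, adjusted p = 0.00614) was under 2-fold. Epithelial cells, at 8.52, 8.46 and 9.31, overlapped both CD4 T cell groups, with replicate 3 the highest.

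Egr3, which shares many targets with Egr2 in lymphocytes, gave no call between gland and spleen. B cells had 5.57, 5.60, 5.72 and 5.55 in gland and 5.46, 5.34 and 5.31 in spleen, a difference of 0.24 (SE 0.10, adjusted p = 0.116). In CD4 T cells the difference was -0.11 (SE 0.10, adjusted p = 0.529). Its 17 values spanned less than 1 unit and lay not far above the median of the table, so they do not show whether the probe set would register a change in Egr3.

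Nab2 binds EGR proteins and represses their activity, and is itself an EGR target. Its values were 7.40, 7.16, 7.91 and 7.13 in gland B cells and 6.67, 6.87 and 6.42 in splenic B cells. The groups did not overlap, and the log2 difference of 0.75 (SE 0.16, adjusted p = 0.00407) was under 2-fold. Among CD4 T cells the gland arrays had 7.28, 7.62, 7.40 and 7.40 and the splenic arrays 7.09, 7.20 and 7.18, a difference of 0.27 (SE 0.16, adjusted p = 0.273). Epithelial cells had 5.80, 6.02 and 6.06, below every lymphocyte array.

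Ier2 encodes a nuclear protein that is induced by growth factors. Gland B cells had 7.81, 8.06, 7.92 and 7.91 and splenic B cells 5.34, 5.51 and 5.44, a log2 difference of 2.49 (SE 0.08, adjusted p = 1.82e-11). The CD4 T cell arrays had 7.47, 7.21, 7.35 and 7.37 in gland and 5.93, 5.93 and 6.08 in spleen, a difference of 1.37 (SE 0.08, adjusted p = 8.54e-09). Epithelial cells had 7.75, 7.60 and 7.79. The order was gland B cells, epithelial cells, gland CD4 T cells, splenic CD4 T cells and splenic B cells, with no overlap between neighbours.

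Ier3 (IEX-1), which acts on cell survival and NF-kB signalling, had an order of its own. Epithelial cells were highest at 10.81, 11.00 and 11.08. Gland CD4 T cells followed at 6.64, 7.39, 7.17 and 6.89, above splenic CD4 T cells at 4.96, 5.50 and 5.0, a log2 difference of 1.87 (SE 0.34, adjusted p = 0.000677). Gland B cells had 4.63, 5.15, 6.31 and 5.39 and splenic B cells 2.60, 3.51 and 3.91, a difference of 2.03 (SE 0.34, adjusted p = 0.000629). All splenic B cell values and 1 gland B cell value lay below the median of the table. The group with the highest Ier3 was also the one with the highest epithelial markers, and both gland lymphocyte groups had more of those markers than spleen; the part of epithelial RNA in the lymphocyte values was not tested.

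The gland difference was compared between B cells and CD4 T cells by an interaction term. It was larger in B cells for 3 genes and smaller for none, where 1.22% of all genes were called larger and 3.87% smaller. Of all called genes 23.9% were larger in B cells, and 35.9% after centring. Without splenic B cell replicate 3 the same 3 genes were called. For Nr4a1 the 2 log2 differences differed by 1.61 (SE 0.18, adjusted p = 1.55e-05), for Egr2 by 1.29 (SE 0.28, adjusted p = 0.00702) and for Ier2 by 1.12 (SE 0.12, adjusted p = 9.7e-06). Egr1 was close behind at 0.95 (SE 0.10, adjusted p = 1.2e-05), a ratio of 1.94 and so just under 2-fold. After centring it was 1.09 and was called. For Nr4a2 the difference between cell types was -0.07, with a 95% interval from -1.10 to 0.96, and 0.27 without splenic B cell replicate 3. The interval for Nr4a3 ran from -1.01 to 3.06 and that for Ier3 from -0.86 to 1.18. These intervals are wide enough to hold differences of 2-fold or nearly so in either direction.

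**Figure D2:**
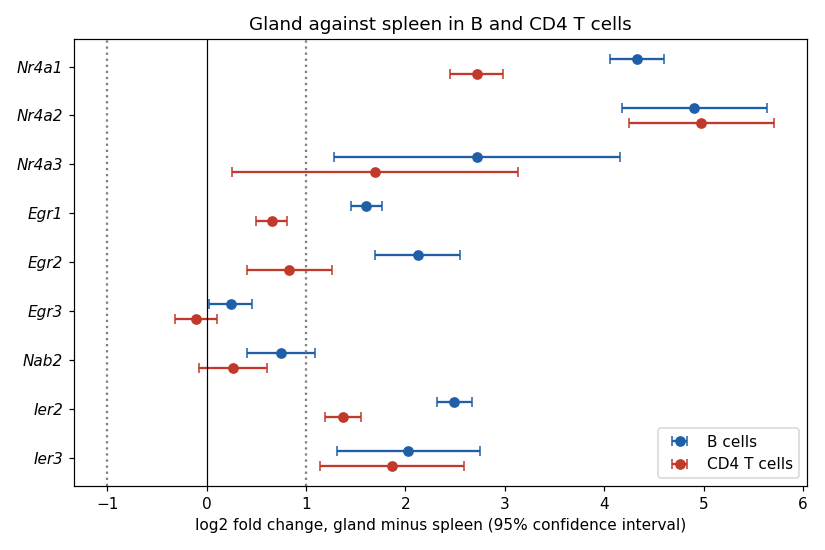
Log2 difference between gland and spleen (horizontal axis) of each of the 9 genes, drawn separately for B cells and CD4 T cells; points are limma estimates, bars are 95% intervals, and dotted lines mark a 2-fold change. Nr4a1 lies at 4.33 for B cells and 2.72 for CD4 T cells with intervals that do not meet, while Nr4a2 lies at 4.91 and 4.97.

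Levels of B cells and CD4 T cells were also set against each other within each tissue. In spleen all 9 estimates were below 0, with a median log2 difference of -0.69 against 0.00 over all genes. Of these, Nr4a3 at -2.73 (SE 0.72, adjusted p = 0.0105) and Ier3 at -1.81 (SE 0.36, adjusted p = 0.00124) passed both thresholds, where 4.63% of all genes were called higher and 4.52% lower. Averaging the probe sets of Nr4a3 gave -0.97, under the threshold. Without splenic B cell replicate 3, Nr4a3 was -2.85 (adjusted p = 0.0247) and Ier3 -2.10 (adjusted p = 0.000891), and Nr4a2 was also called at -1.30 (adjusted p = 0.0225). In the gland 1 gene was higher and 2 were lower in B cells, with 3.73% and 5.97% of all genes called. Nr4a1 was higher by 1.19 (SE 0.12, adjusted p = 6.26e-07). Nr4a2 was lower at -1.04 (SE 0.32, adjusted p = 0.0207), a value that fell under 2-fold after centring (-0.92) and when gland B cell replicate 1, 2 or 4 or CD4 T cell replicate 2 was left out (-0.86 to -0.99). Ier3 was lower at -1.65 (SE 0.31, adjusted p = 0.000648). Nr4a3 missed the threshold at -1.71 (SE 0.62, adjusted p = 0.0501), and without gland B cell replicate 3 it was -2.55 (adjusted p = 6.79e-05). So Nr4a1 took the opposite position from Nr4a2 in gland B cells, although both were far above their splenic levels.

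The CD45-, CD326+ group, sorted as epithelial cells, carried several of these transcripts at the level of gland lymphocytes. On epithelial arrays 2 and 3 the T cell gene Cd3e was at 4.24 and 4.20 and the B cell gene Ms4a1 at 2.92 and 2.87, both under the median of the table, while Nr4a1 was at 8.91 and 8.69. On the same arrays the endothelial gene Emcn was at 9.56 and 9.45. On the 2 arrays with B and T cell markers that low, Nr4a2 was at 8.79 and 8.77. Nr4a3 was at 7.23 and 6.86 and Nab2 at 6.02 and 6.06. The genes are named here by family, and the signals behind their levels were not tested. Against the mean of both gland lymphocyte groups, 1 of the 9 genes was higher in epithelial cells and 2 were lower, where 15.2% of all genes were called higher and 10.3% lower. In this comparison 6 of 7 endothelial and 4 of 7 fibroblast markers were called higher, and their part in the values of the 9 genes was not tested. Of the called genes 59.6% were higher, and 43.2% after centring, which removed 0.315 from every difference. Ier3 was 27.2-fold higher (log2 difference 4.77, SE 0.30, adjusted p = 8.32e-10). Nr4a3 was lower at -2.24 (SE 0.60, adjusted p = 0.00383) and Nab2 at -1.45 (SE 0.14, adjusted p = 1.8e-07). Without epithelial replicate 1 these were 4.84, -2.78 and -1.37, and the same counts were called; the others were -0.60 for Nr4a1, 0.82 for Egr1, -0.85 for Egr2, -0.40 for Egr3, 0.06 for Ier2 and -0.11 for Nr4a2, the last with its sign turned. With all arrays, Egr2 was at -0.97 (adjusted p = 0.000176), just under 2-fold, and was called at -1.29 after centring. Egr1, at 0.80 (adjusted p = 1.72e-08), was under 2-fold. Nr4a2 (0.05, adjusted p = 0.902) and Ier2 (0.08, adjusted p = 0.38) gave no call, and both signs turned after centring, to -0.27 and -0.24. There was no epithelial group from another tissue, so whether epithelial levels are specific to the gland cannot be asked here.

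Some genes are represented by more than 1 probe set, 16 in all for the 9 genes. Nr4a2 has 5. In B cells the gland difference was 4.91 on the probe set used, 3.65 on another and 1.21 on the least responsive of the 3. In CD4 T cells the values were 4.97, 5.46 and 2.70, and all 6 passed. The other 2 Nr4a2 probe sets, with values near or below the median of the table, gave differences between -0.02 and 0.31 and no call. The comparison of cell types depended on the probe set: on the least responsive the gland difference was smaller in B cells, by a log2 value of -1.49 (SE 0.41, adjusted p = 0.0332 over all probe sets). On the other it was -1.81 (SE 0.60, adjusted p = 0.0808), and on the one used -0.07. Within the gland, all 3 responsive probe sets gave lower Nr4a2 in B cells than in CD4 T cells, at -1.04, -1.52 and -1.84, each called. For Nr4a3 the other 2 probe sets lay below the median of the table and gave no call between gland and spleen, so its result rests on 1 probe set. For Egr2 the second probe set gave 1.93 for B cells and 0.77 for CD4 T cells, close to the one used.

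**Figure D3:**
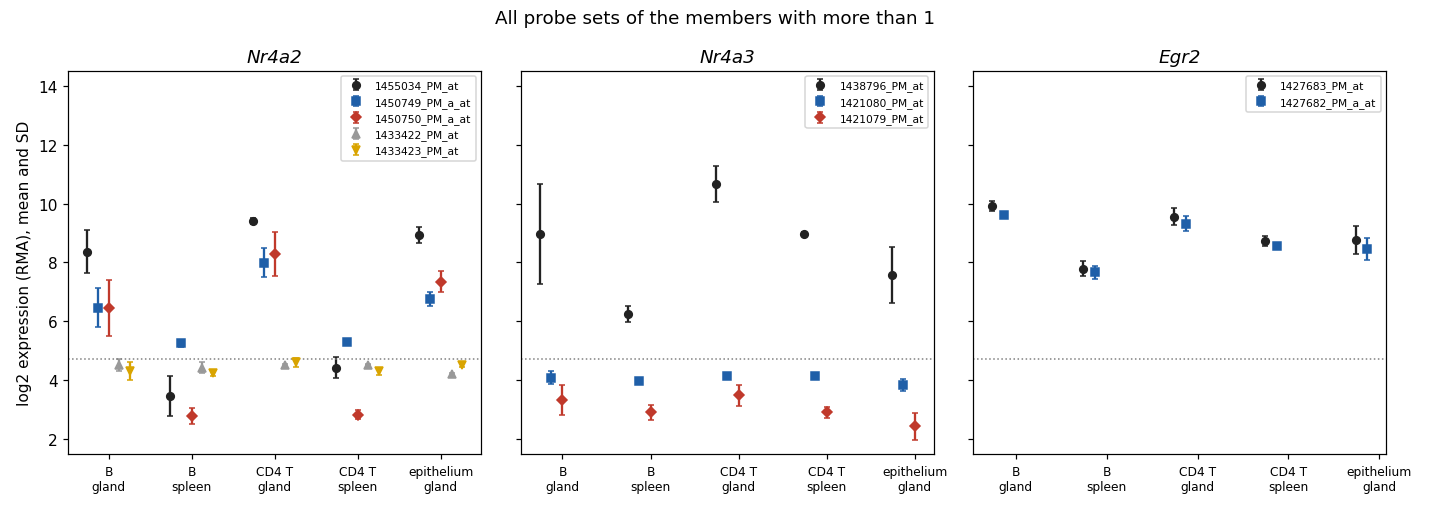
Mean log2 RMA value with SD (vertical axis) in each of the 5 groups for every probe set of Nr4a2, Nr4a3 and Egr2; the black circles are the probe sets used, and the dotted line is the median of all values, 4.71. For Nr4a2 3 of 5 probe sets are higher in gland than in spleen, the other 2 Nr4a3 probe sets stay below the line, and both Egr2 probe sets run side by side.

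Single libraries moved the Nr4a2 and Nr4a3 values. Gland B cell replicate 3 was the highest of its group on all 3 responsive Nr4a2 probe sets (7.45 against at most 6.19 on the one with the smallest gland difference) and on Nr4a3. In it, 2 of the 9 genes were more than 1 unit above all other gland B cell arrays, as were 79 of 17097 genes, or 0.462%. Gland CD4 T cell replicate 2 had the highest Nr4a3 (11.58) and the lowest Egr2 (9.11) of its group, and 68 genes, or 0.398%, stood more than 1 unit above. The mean of the 8 heat shock genes was 9.84 in gland B cell replicate 3, against 9.13, 9.08 and 9.69 in the others, and 9.89 in CD4 T cell replicate 2, against 9.18, 9.56 and 9.69. In both groups the array with the highest Nr4a3 also had the highest heat shock mean, but in B cells replicate 4 had nearly the same mean (9.69) and the lowest Nr4a3 (7.76). Whether stress or handling had a part in these values was not tested. Without gland B cell replicate 3 the B cell differences were 4.20 for Nr4a1, 4.54 for Nr4a2 and 1.72 for Ier3, and 7 genes were still called. Without splenic B cell replicate 3, the library with S100a8, Nr4a2 was 5.24, Nr4a3 2.84 and Ier3 2.31, and 7 were called.

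**Figure D4:**
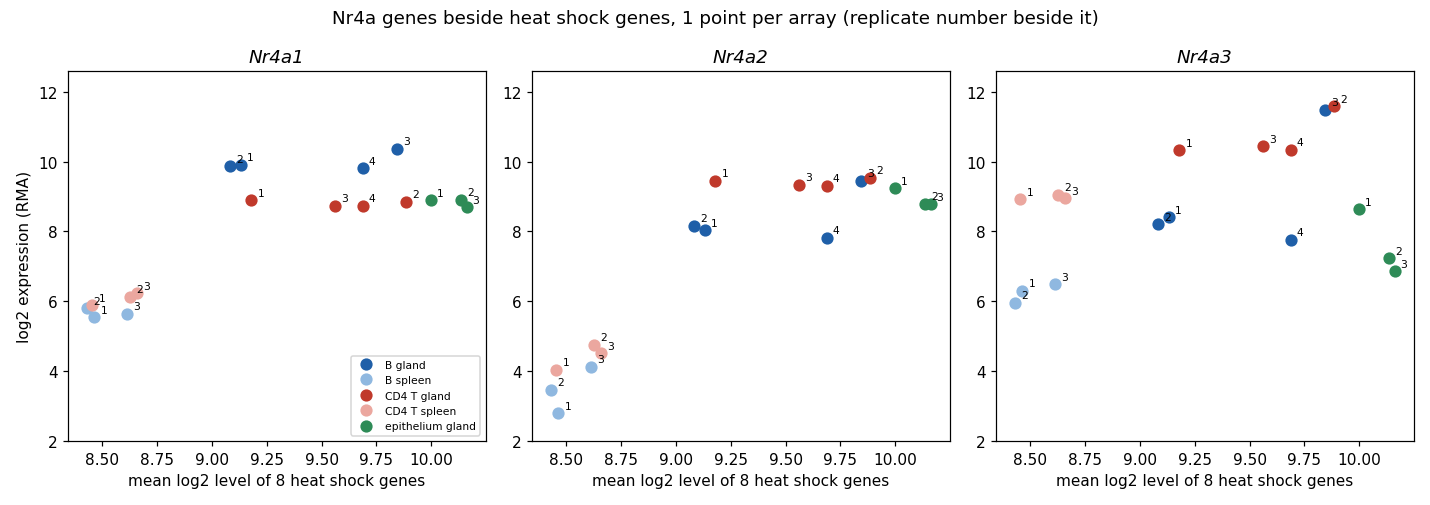
Log2 RMA value of Nr4a1, Nr4a2 and Nr4a3 (vertical axis) against the mean log2 value of 8 heat shock genes (horizontal axis), 1 point per array with its replicate number, coloured by group. Gland B cell replicate 3 and CD4 T cell replicate 2 have Nr4a3 at 11.49 and 11.58 with heat shock means of 9.84 and 9.89, and the splenic arrays lie between 8.43 and 8.66 on the horizontal axis.

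Close relatives of the 9 genes gave no call between gland and spleen, where the shares over all genes given above would leave few or none to be called in lists of this size. Of 8 measured (Egr4, Nab1, Ier5, Ier5l, Wt1, Sp1, Rxra and Rxrb), 0 were called in either gland comparison by limma, while 3 for B cells and 2 for CD4 T cells had an unadjusted p under 0.05. At any fold 2 and 2 of them passed the adjusted p, where 3019 and 3995 of 17097 genes did. Their median log2 difference was 0.05 for B cells and -0.01 for CD4 T cells. Nab1, the other EGR corepressor, was under 2-fold at -0.33 (adjusted p = 0.0242) in B cells and 0.67 (adjusted p = 7.33e-05) in CD4 T cells.

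Genes that control Nr4a and Egr transcription were called at about the share of all genes. Of 17 measured, including SRF, ELK, CREB, MEF2 and NFAT family members, 0 were called by limma in B cells (median 0.03) and 1 in CD4 T cells (median 0.00), where 2.58% and 5.35% of all genes were called higher, with an unadjusted p under 0.05 for 2 and 7 of them. The called gene was Nfatc1, a calcineurin-dependent factor, with a log2 difference of 1.09 (adjusted p = 0.000109). At any fold, 1 and 6 of the 17 passed the adjusted p, where 3019 and 3995 of 17097 genes did. Crem was under 2-fold higher in B cells (0.79, adjusted p = 0.000743). In a limma fit of the CD4 T cell arrays alone, Rcan1 (0.99, adjusted p = 9.44e-05) and Elk3 (0.95, adjusted p = 0.000159) were just under 2-fold higher. Elk4 was lower there (-0.26, adjusted p = 0.0248). Of 16 genes of the antigen receptor proximal chain, 0 were called by limma in either cell type (median 0.16 for B cells and 0.02 for CD4 T cells), with an unadjusted p under 0.05 for 1 and 2 of them. At any fold 1 and 2 passed the adjusted p, beside the counts over all genes just given. The shared spread takes in epithelial values such as 8.82, 4.55 and 3.76 for Cd3d. In limma fits of only the groups compared, all stayed under 2-fold. For CD4 T cells Zap70 (0.85, adjusted p = 0.000289) and Blnk (0.82, adjusted p = 0.0234) were then higher, Blnk with all values below the median of the table. Rasgrp1 (-0.38, adjusted p = 0.00624), Prkcq (-0.34, adjusted p = 0.0108) and Lat (-0.31, adjusted p = 0.0199) were lower. For B cells Cd79b (-0.44, adjusted p = 0.00891) and Rasgrp1 (-0.34, adjusted p = 0.0307) were lower. Syk was at -0.93 in B cells. Its adjusted p was 0.0105 with the shared spread and 0.0759 in the fit of the B cell arrays alone. RNA levels do not report the activity of these proteins.

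Some of the other genes that antigen receptors induce rose. Of 18, 6 were higher and 0 lower in B cells (median 0.91), where 2.58% of all genes were called higher and 1.6% lower. Among the 6 were Nfkbid at 4.45-fold, Rel at 3.86-fold, Myc at 3.15-fold and Bhlhe40 at 2.89-fold. In CD4 T cells 11 were higher and 1 lower (median 2.01), where 5.35% of all genes were called higher and 1.62% lower. The chemokine Ccl3 was 48.9-fold higher (adjusted p = 0.00064) as a ratio of deposited values, its splenic values of 2.05, 3.80 and 2.36 being below the median of the table. Also higher were the repressor Bhlhe40 35.5-fold, the chemokine Xcl1 10.8-fold and Gadd45b 9.26-fold. Myc moved the other way in CD4 T cells, with a log2 difference of -1.21 (adjusted p = 0.0142). Cd69, an early activation antigen, was not called with the spread shared by all groups, which takes in epithelial values of 8.57, 1.72 and 1.66. It was 10.54 to 10.63 on gland B cell arrays and 8.54 to 8.66 on splenic ones, a difference of 1.98 with an adjusted p of 0.254, and of 2.81e-06 in a fit of those 7 arrays alone. In such fits 9 of the 18 genes were called for B cells and 14 for CD4 T cells. Of all 17097 genes, 681 and 1211 were called in these fits.

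Genes tied to NR4A and EGR factors in tolerance and exhaustion were called more often in CD4 T cells than in B cells. On all B cell arrays Pdcd1, Fasl, Havcr2 and Ikzf2 lay below the median of the table. The list was thus not equally able to show changes in both cell types. Of 17 measured, 2 were higher and 1 lower in B cells (median 0.22), where 2.58% of all genes were called higher and 1.6% lower. For CD4 T cells 7 were higher, 1 was lower and 9 were not called (median 0.94). There, 5.35% of all genes were called higher and 1.62% lower. In CD4 T cells Lag3, an inhibitory receptor, was 18.5-fold higher, Ctla4 9.83-fold, Rnf128 (GRAIL, an anergy-associated ubiquitin ligase) 9.04-fold and Pdcd1 (PD-1) 7.24-fold. In B cells Ctla4 was 3.07-fold and Rnf128 2.28-fold higher, with all splenic values of Rnf128 below the median of the table. Rnf128 was highest in epithelial cells, at 10.08, 10.01 and 9.96. The part of epithelial RNA in its gland lymphocyte values was not tested. Beside this, the T cell gene Cd3e was between 5.14 and 5.90 on gland B cell arrays and at 4.30, 4.66 and 5.82 on splenic ones; its part in the B cell values was not tested. Id3, an inhibitor of E proteins, was lower in both, at -1.35 in B cells (adjusted p = 2.23e-06) and -1.56 in CD4 T cells (adjusted p = 1.78e-07). Gland CD4 T cells can hold other proportions of memory, effector and regulatory cells than spleen, and cell composition and level per cell cannot be told apart.

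Among immediate early genes of other families, most rose. Of 18 measured, 15 were called higher in B cells (median 2.78) and 11 in CD4 T cells (median 2.61), where 2.58% and 5.35% of all genes were, and none was called lower. Fosb, an AP-1 subunit, was 114-fold higher for B cells and 77.3-fold for CD4 T cells, and Fos 49.3-fold and 20.7-fold. The further AP-1 genes Fosl2 in B cells and Jun in CD4 T cells were 26.9-fold and 30.8-fold higher. Klf4, a zinc finger factor, was 24.5-fold higher for B cells and 35.8-fold for CD4 T cells. All splenic Fosb values, and the splenic CD4 T cell values of Klf4, lay below the median of the table. Fosl2 was at 2.94, 2.98 and 5.25 in splenic B cells and Jun at 4.48, 4.43 and 5.29 in splenic CD4 T cells. Of these values all but those of replicate 3 lay below that median. The folds of these genes are thus ratios to levels not shown to be above background. The list mean was between 9.08 and 9.51 in gland B cells, 6.37 and 6.48 in splenic B cells, 8.81 and 9.29 in gland CD4 T cells, 6.46 and 6.63 in splenic CD4 T cells and 9.95 and 10.02 in epithelial cells. So all 3 gland groups lay above both splenic groups, and epithelial cells lay highest.

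Heat shock genes were measured beside them as markers of cell stress. Of 8, 1 was called higher by limma in B cells (Hspa1b, 18.9-fold, adjusted p = 0.000266) and 2 in CD4 T cells (Hspa1b, 31.0-fold, adjusted p = 2.78e-05, and Hsp90aa1, 2.08-fold). Of all genes, 2.58% were called higher for B cells and 5.35% for CD4 T cells. The list mean was between 9.08 and 9.84 in gland B cells, 8.43 and 8.61 in splenic B cells, 9.18 and 9.89 in gland CD4 T cells, 8.46 and 8.66 in splenic CD4 T cells and 10.00 and 10.16 in epithelial cells. Much of the gap came from Hspa1b: over the 7 other genes the mean was between 9.22 and 9.70 in gland B cells, 8.93 and 9.03 in splenic B cells, 9.28 and 9.76 in gland CD4 T cells and 9.04 and 9.17 in splenic CD4 T cells. The heat shock means were thus higher in gland than in spleen, as the called genes among the 9 were; their part in the result was not tested.

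The genes most like each member were found by Pearson's r over the 17 arrays among 10142 genes with a mean above the median of the table. The points share arrays and groups, so r mostly reflects the 5 groups, and it is given without a p. Nr4a1 was nearest to Bambi (0.971), Fosb (0.968) and Jund (0.968). Nr4a2 was nearest to Dusp1 (0.967), Fos (0.963) and Wfdc18 (0.960), and Ier2 to Fos (0.980), Fosb (0.971) and Dusp1 (0.970). These 3 members thus had immediate early genes among their neighbours, but not only these. Wfdc18 had its highest mean in epithelial cells (12.14). It was at 10.94 in gland B cells and 11.07 in gland CD4 T cells, against 4.69 and 4.24 in the splenic groups. Whether epithelial RNA had a part in these likenesses was not tested. Nr4a3 was nearest to Mxd1 (0.910), Tmx4 (0.903) and Zdhhc20 (0.901), and Egr2 to Irf1 (0.911), Rnf213 (0.887) and Pnrc1 (0.875), none of them from the immediate early list. Egr1 was nearest to the epithelial genes Dsp (0.966) and Krt18 (0.954) and to Marchf5 (0.946). The nearest genes of Ier3 were Zbtb42 (0.980), Cpd (0.978) and Glis3 (0.977). Nab2 was nearest to Msh6 (0.944), Cep120 (0.942) and Tex10 (0.941), and Egr3 to Safb (0.946), Rbm39 (0.936) and Rlim (0.936).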

How the data were processed

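Gene expression was measured on 17 Affymetrix mouse arrays. The values are log2 intensities as deposited by the authors, who used Partek and RMA per the submitters' processing notes; the build and other settings are not given in the sources used here. Per the labels' protocols, cells were sorted to a purity over 99% and RNA of RIN 8 or more was amplified. Of 45141 probe sets, 28898 had exactly 1 gene symbol (28689 matched by ID), 551 had several and 15588 were not listed; 104 control probe sets were left out. Each of 17097 genes was read from its probe set of highest mean value.

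All 5 groups were fitted together with limma 3.58.1 (R 4.3.3; lmFit and eBayes, 12 residual degrees of freedom), on the values as deposited and without a block. P-values were adjusted by Benjamini-Hochberg over all genes, and a call needs an adjusted p under 0.05 and a change of at least 2-fold. No pairing by replicate number was used in this fit. Deviations of same-numbered arrays correlated between -0.40 and 0.21, but groups of 3 or 4 arrays are too small to decide whether samples are paired. Log2 shifts of 2 were simulated in 200 of 17097 genes. The fit recovered 99% in the gland comparison of B cells, with 0 false calls, and 98.5% in that of CD4 T cells. For the interaction it recovered 95.5%, with 3 false calls. Such shifts lie well above the 2-fold limit, so these shares do not tell how many changes near that limit are found. Nor are they shown to hold for genes whose spread differs between groups. On the real arrays, Cd69 differed by 1.98 between gland and splenic B cells and was not called with the shared spread.

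The 9 genes and the gene lists were chosen with earlier results of these data known. All 9 genes are named. From each list, the called genes of largest change, at most 4 for each gland comparison, are named, and others only where needed to say what was not called. Alternatives covered the filter, the probe set rule, centring, quantile normalization, moderation, array weights, the replicate block, the groups fitted and each array left out; list counts with only the arrays of the groups compared were added after the data were seen. The number of arrays limits the precision. Figures were drawn with matplotlib 3.10.9.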

Additional observations from a re-analysis of the deposited data

Results flagged for a closer look

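Gland CD4 T cell replicate 2 stood apart from the other 3 arrays of its group for 2 of the 9 genes. Its Nr4a3 level of 11.58 was the highest, with the gap to the next array making up 0.907 of the group's whole range. Its Egr2 level of 9.11 was the lowest, with 0.898 of the range. The limit for 4 samples is 0.829, and chance alone passes it in about 5% of groups. It was applied to each of the 9 genes in both groups of 4 arrays, so a pass can come by chance. Without CD4 T cell replicate 2 the gland difference of CD4 T cells was 1.39 (limma adjusted p = 0.204) for Nr4a3 and 0.98 for Egr2, and the same 4 genes were called.

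The gland difference was larger in B cells than in CD4 T cells by the interaction term for 4 genes, 3 of them past the 2-fold threshold. The log2 values were 1.61 for Nr4a1 (limma adjusted p = 1.55e-05), 1.29 for Egr2 (adjusted p = 0.00702), 1.12 for Ier2 (adjusted p = 9.7e-06) and 0.95 for Egr1 (adjusted p = 1.2e-05). For Nr4a1 the value ran from 1.49 to 1.75 over the alternatives.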

How the results depend on the processing

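The count of members called was 7 for B cells and 4 for CD4 T cells whichever array was left out, and with the replicate block; with no fold minimum it was 8 and 6, in fits of the groups compared alone 6 and 5, and with array weights 7 and 5. Leaving out 1 array gave 3 to 4 members in the interaction, 2 to 4 for B cells against CD4 T cells in the gland, 2 to 3 in the spleen and 3 to 4 for epithelial cells. With no fold minimum the last 3 counts were 6, 7 and 7 in place of 3, 2 and 3, and averaging the probe sets of a gene gave 1 in the spleen. The replicate block gave counts of 7, 4, 3, 3, 2 and 3 members for the 6 comparisons and changed no call. Best matches with the own replicate number were 0 of 3 for gland against spleen in both cell types. Between B cells and CD4 T cells they were 1 of 4 in gland and 1 of 3 in spleen. For epithelial cells they were 2 of 3 with gland B cells and 1 of 3 with gland CD4 T cells. Over all genes, no fold minimum raised the called genes from 714 to 3019 for B cells, from 1191 to 3995 for CD4 T cells, from 869 to 1731 in the interaction, from 1659 to 5196 and 1565 to 3843 between cell types in gland and spleen, and from 4354 to 11081 for epithelial cells.

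Signs turned only for values that were not called. The Nr4a2 interaction was 0.067 after centring, 0.037 after quantile normalization and -0.43 to 0.27 with 1 array left out. The Ier3 interaction was -0.023 with array weights and -0.21 to 0.44 with 1 array left out. Nab2 between cell types in the gland was 0.094 after centring, 0.062 after quantile normalization and -0.19 to 0.065 with 1 array left out, and Egr3 in the spleen -0.072 to 0.0021. For epithelial cells, Nr4a2 was -0.14 with the mean of probe sets, -0.27 after centring, -0.013 after quantile normalization, -0.061 with the replicate block and -0.11 to 0.23 with 1 array left out, and Ier2 was -0.24 after centring and -0.019 after quantile normalization. The cause was not tested.

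The Nr4a2 difference between gland B cells and gland CD4 T cells lies at the 2-fold threshold: -1.04 fell under it with the mean of probe sets (-0.94), centring (-0.92), quantile normalization (-0.99), and without gland B cell replicates 1 (-0.92), 2 (-0.97) or 4 (-0.86) or CD4 T cell replicate 2 (-0.99). Nr4a3 in B cells was 1.08 when its probe sets were averaged and 1.88 to 3.12 with 1 array left out; in the spleen it was -0.97 with the mean of probe sets. Values below the median of the table have no detection call, so small levels bound what these arrays can show.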
